A study of Rattus norvegicus with 44 samples.

Results

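The genes described here are Por, Alas1 and Hmox1 of the rat, which encode cytochrome P450 reductase, the first enzyme of heme synthesis and the first enzyme of heme breakdown. They were chosen by gene symbol: every probe set of the liver arrays whose single annotated symbol was 1 of the 3 was taken, which gave 3 of the 4741 genes with such a probe set and 7 of 8799 probe sets, 3 for Por and 2 each for Alas1 and Hmox1. Male Wistar rats, 8 weeks old, were gavaged once a day with compound R1, compound R2 (known by code name) or the citric acid buffer used as vehicle, and were killed 24 h after the final dose. A slice of the left lateral liver lobe went to RNA extraction, and 44 samples were each hybridized to 1 Affymetrix array in 4 separate studies. Study 1 lasted 24 h and had 3 arrays of vehicle livers, and R1 was given at 10 mg/kg/day (4 arrays), 30 (3 arrays) and 100 (3 arrays). Study 4 also lasted 24 h, with 5 arrays at 300 mg/kg/day of R2 and 4 vehicle arrays. Study 2 lasted 336 h and had 4 arrays of vehicle livers, with R1 at 20 mg/kg/day on 5 and at 100 on 4. Study 3, again 336 h, had R1 at 30 mg/kg/day on 4 arrays and vehicle on 5. The labels number the replicates without stating that each is another animal, so a p-value measures the spread between these samples, which may in part be technical.

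Microsomal cytochromes P450 are heme proteins of the endoplasmic reticulum that oxidize drugs, steroids and fatty acids. They draw their electrons from NADPH through P450 reductase, the product of Por, which also serves heme oxygenase and the sterol enzyme CYP51. ALAS1 catalyses the rate-limiting step of heme synthesis in hepatocytes, and its gene is known to be induced by drugs that activate the receptors CAR and PXR and to be repressed by heme. HMOX1 opens the heme ring to biliverdin, iron and carbon monoxide, and its gene is a known target of the oxidative stress factor NRF2 and of heme itself through BACH1.

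The promoters of Por and Alas1 are shown because all probe sets of both genes were called higher in the same livers. These livers were given R1 at 30 or 100 mg/kg/day for 24 h, R1 at 30 for 336 h in study 3, or R2. The 300 bases run from 250 before to 50 after the start site in RefSeq's GRCr8 table, which holds an entry for 2 of the 3 genes. The Por window is chr12:26635760-26636059 and the Alas1 window is chr8:115768593-115768892, both on the minus strand and printed 5′ to 3′ along the gene. Capitals mark GC boxes (GGGCGG) and a nuclear receptor hexamer (AGGTCA) in Por, and the core of an NRF-1 site (CGCATGCG) in Alas1.
Por: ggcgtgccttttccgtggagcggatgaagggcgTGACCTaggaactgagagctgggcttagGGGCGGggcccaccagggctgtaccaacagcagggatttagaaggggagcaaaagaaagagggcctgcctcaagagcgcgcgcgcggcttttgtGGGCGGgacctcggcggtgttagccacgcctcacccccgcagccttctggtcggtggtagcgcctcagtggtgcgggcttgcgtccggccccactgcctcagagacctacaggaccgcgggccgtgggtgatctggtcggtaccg
Alas1: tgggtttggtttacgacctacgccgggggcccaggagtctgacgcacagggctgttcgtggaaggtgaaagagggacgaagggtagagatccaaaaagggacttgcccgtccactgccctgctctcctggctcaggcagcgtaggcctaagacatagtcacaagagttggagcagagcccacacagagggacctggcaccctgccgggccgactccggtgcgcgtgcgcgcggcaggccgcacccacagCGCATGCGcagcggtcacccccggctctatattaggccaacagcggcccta
The Por window held 2 GC boxes, at its bases 62 to 67 and 156 to 161, and 1 hexamer on the opposite strand at bases 34 to 39. The Alas1 window held 1 NRF-1 core, part of a site named for nuclear respiratory factor 1, at bases 250 to 257, around the start site. Over both strands, 33.1% of 33469 rat promoters of the same length had a GC box, 16.2% the hexamer and 1.66% the NRF-1 core. A TATA box (TATAAA, in 14.2% of promoters) and the core of the antioxidant response element (TGACNNNGC, in 12.1%) were searched as well, and their letters were not in either window. The motifs marked do not overlap one another. G and C made up 66.3% of the Por window and 64% of the Alas1 window, against a median of 51.7% over all promoters. In the same build Por lies at chr12:26587674-26655612, Alas1 at chr8:115755238-115768642 and Hmox1 at chr19:13452365-13479823, so the Por window lies inside the annotated gene, whose 5′ end is farther upstream. The array annotation names no genome build, and the position of each probe set within its gene was not analysed here.

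All 7 probe sets were bright enough to be tested, with means over the arrays between percentile 74.7 and percentile 95.5 of the array. Levels are the deposited signal. Differences are given as log2 fold change ± SE, fitted with limma to log2(signal + 2.895). A difference was called where its p, adjusted by Benjamini-Hochberg over 6361 tested probe sets, was under 0.05. The offset of 2.895 understates the change of dim genes. Precision is limited by how many arrays a group has. Signals of different probe sets are not on 1 scale, so each is compared only with itself. Arrays of a group correlated at 0.924 to 0.974. R2 replicates 1 and 2 stood apart, correlating at 0.953 with each other and at 0.924 to 0.944 with R2 replicates 3 to 5. The 8 hepatocyte markers (Alb, Apoa1, Ttr and others) all lay above percentile 94.2. In whole tissue a change in the number of cells of a type and a change in RNA per cell cannot be told apart.

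All 3 genes rose together with R1 at 100 mg/kg/day after 24 h and with R2. Por was called from R1 at 10 mg/kg/day upwards, Alas1 from 30 and Hmox1 at 100. After 336 h, Por and Alas1 were called in study 3 and not in study 2, and Hmox1 in both. Counted over the 7 probe sets, 2 were called higher with R1 at 10 mg/kg/day after 24 h (1.04% of all tested probe sets were), 5 at 30 (1.48%) and 7 at 100 (3.96%). With R2, 7 were higher (7.44% of all). After 336 h, 0 of 7 were called higher at 20 mg/kg/day (2.55% of all), 2 at 100 (5.11%) and 6 at 30 in study 3 (5.27%). At an unadjusted p under 0.05 limma gave 2 at 20 mg/kg/day, and the share of all probe sets at that threshold was not counted. None of the 7 was called lower, against 0.204%, 0.252% and 2.44% of all at 10, 30 and 100 mg/kg/day after 24 h, 7.88% with R2, and 1.89%, 5.2% and 6.01% at 20, at 100 and in study 3 after 336 h. The arrays of a dose did not overlap those of its vehicle for 3, 7 and 7 of 7 probe sets at 10, 30 and 100 mg/kg/day after 24 h (10.8%, 15.7% and 24.8% of all), 7 with R2 (13.6%), and after 336 h for 0 at 20 (8.3%), 2 at 100 (14.6%) and 5 at 30 in study 3 (13.9%). The median log2 fold change of the 7 was 0.70, 1.31 and 2.06 at 10, 30 and 100 mg/kg/day after 24 h, where the medians over all tested probe sets were -0.02, -0.03 and -0.04. It was 2.04 with R2 (all: -0.05), and after 336 h 0.29 at 20 mg/kg/day, 0.45 at 100 and 0.93 at 30 (all: -0.01, -0.02 and -0.01). Between 10 and 100 mg/kg/day after 24 h, 5 of 7 were higher at the higher dose (2.31% of all), and between 20 and 100 after 336 h, 2 were (2.09%), both of Hmox1. R1 was given at up to 100 and R2 at 300 mg/kg/day, in different studies, so their values stand side by side without a comparison.

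**Figure D1:**
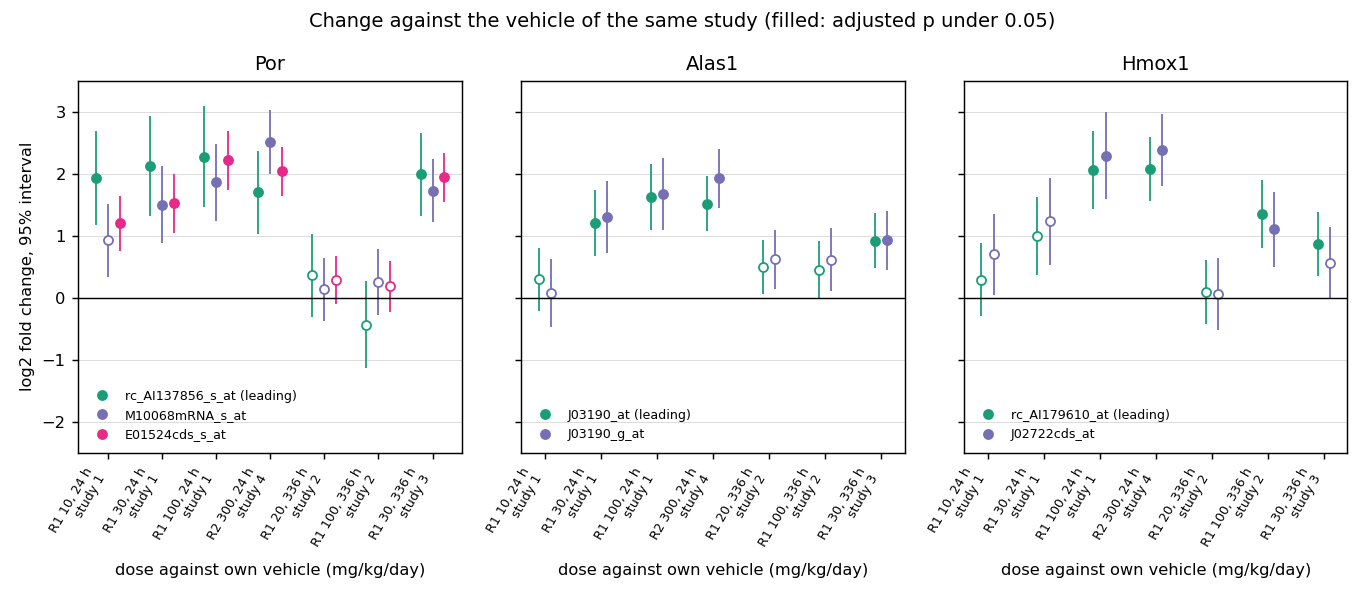
Log2 fold change of the 7 probe sets against the vehicle of the same study, with 95% intervals from limma (33 residual degrees of freedom); filled points had an adjusted p under 0.05, and doses are in mg/kg/day. All 7 are filled for R1 at 100 mg/kg/day after 24 h and with R2, and none is filled at 20 mg/kg/day after 336 h.

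Por rose within 24 h of R1 at the lowest dose given, and all 3 of its probe sets were higher at 30 and 100 mg/kg/day. The probe set with the highest mean, rc_AI137856_s_at, had signals of 166, 79.9 and 151 in study 1 vehicle livers. It had 554, 499.9, 555 and 380.4 at 10 mg/kg/day, 629, 552 and 508 at 30 and 958, 578 and 440.4 at 100. Every R1 array lay above every vehicle array, and the 3 doses overlapped one another. Against vehicle this was 1.94 ± 0.38 at 10 mg/kg/day, 2.12 ± 0.40 at 30 and 2.28 ± 0.40 at 100 (limma adjusted p = 0.00161, 5.36e-04 and 1.00e-04). The call at 10 mg/kg/day was lost without vehicle replicate 2, the lowest vehicle array, with adjusted p = 0.0595.

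The second Por probe set, E01524cds_s_at, rose at each dose. Its signals were 179.5, 106 and 113 in vehicle livers, 304, 292, 274 and 338 at 10 mg/kg/day, 439, 326 and 375 at 30 and 786, 585 and 496 at 100. Vehicle and R1 arrays did not overlap, and every array at 100 mg/kg/day lay above every array at 10 and 30. The log2 fold change was 1.20 ± 0.22 at 10 mg/kg/day, 1.53 ± 0.24 at 30 and 2.22 ± 0.24 at 100 (adjusted p = 7.41e-04, 1.51e-05 and 2.95e-09). Directly compared, 100 mg/kg/day exceeded 10 by 1.01 ± 0.22 (adjusted p = 0.00355), a call lost without the brightest array at 100 mg/kg/day, replicate 1 (adjusted p = 0.0674).

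The third, M10068mRNA_s_at, had 159, 113 and 133 in vehicle livers, 186, 316, 262 and 282 at 10 mg/kg/day, 519.7, 315 and 345 at 30 and 569.8, 545 and 389 at 100. The 4 arrays at 10 mg/kg/day also lay above the 3 vehicle arrays, but the difference of 0.92 ± 0.29 did not pass (adjusted p = 0.131). It passed at 30 (1.50 ± 0.31, adjusted p = 0.00181) and at 100 mg/kg/day (1.86 ± 0.31, adjusted p = 3.50e-05). Between the doses, 100 against 10 mg/kg/day gave 0.34 ± 0.38 for rc_AI137856_s_at (adjusted p = 0.750) and 0.94 ± 0.29 for M10068mRNA_s_at (adjusted p = 0.0549). The last passed with a stricter filter (adjusted p = 0.0421), with each study alone (0.0258) and with weighted arrays (0.0343), and its value at 10 mg/kg/day passed with weighted arrays (adjusted p = 0.0302).

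**Figure D2:**
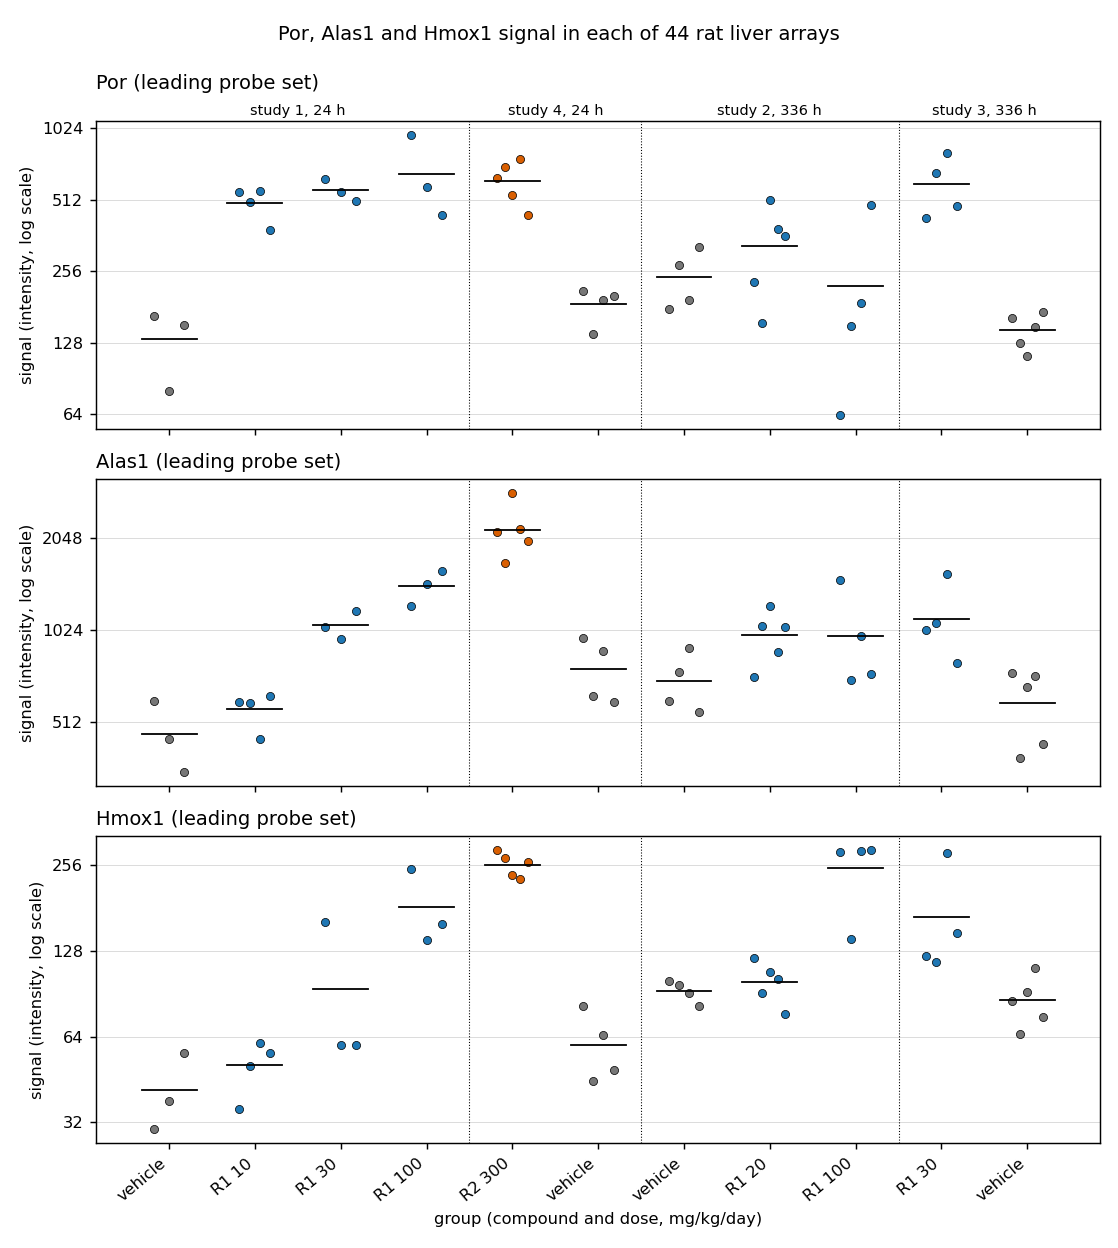
Deposited signal (log scale) of the leading probe sets of Por, Alas1 and Hmox1 in each of 44 rat liver arrays (points), with the mean of each group (line), by study and dose in mg/kg/day. Por in study 1 averaged 497 with R1 at 10 mg/kg/day, against 133 in vehicle livers, Alas1 reached its highest mean (2184) with R2, and Hmox1 averaged 182 at 100 mg/kg/day after 24 h.

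R2 at 300 mg/kg/day raised Por in study 4, also within 24 h. E01524cds_s_at had 488, 569, 494, 509.6 and 516 in R2 livers, against 109, 117, 147 and 121 in vehicle livers, and the groups lay far apart. The difference was 2.04 ± 0.19 (adjusted p = 6.68e-11), a ratio of means of 4.18. M10068mRNA_s_at had 965, 1163, 339.6, 426 and 498 in R2 livers, against 77.8, 122, 126 and 95.2 in vehicle livers. Its brightest arrays were R2 replicates 1 and 2, which stood apart over the whole array too. With all arrays the change was 2.52 ± 0.25 (adjusted p = 3.16e-10), and with R2 replicates 3 to 5 alone it was 1.98 (adjusted p = 3.43e-08). For rc_AI137856_s_at the change was 1.70 ± 0.33 (adjusted p = 1.81e-04), with signals of 442 to 762 in R2 livers and 139 to 211 in vehicle livers.

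After 336 h Por was called in study 3 and not in study 2, and the difference between these effects was not tested. In study 3, R1 at 30 mg/kg/day raised all 3 probe sets by close to the same factor. The leading probe set had 429, 667, 807 and 483 in R1 livers, against 163, 128, 112, 149 and 172 in vehicle livers, a change of 1.99 ± 0.33 (adjusted p = 1.90e-05). E01524cds_s_at had 397, 483, 650.2 and 434 in R1 livers, against 147, 98.5, 117, 119 and 139.8 in vehicle livers (1.95 ± 0.19, adjusted p = 3.15e-10). M10068mRNA_s_at had 289, 328, 496 and 375 in R1 livers, against 133, 80.4, 134, 91.3 and 112 in vehicle livers (1.73 ± 0.25, adjusted p = 2.33e-06). No R1 array overlapped a vehicle array at any of the 3.

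In study 2 no Por probe set was called at either dose. E01524cds_s_at had 159, 295, 268 and 307 in vehicle livers, 288, 233, 317, 344 and 364 at 20 mg/kg/day and 352, 185, 270.3 and 372 at 100. M10068mRNA_s_at had 240.1, 313, 253 and 353 in vehicle livers, 379, 253, 233, 397 and 349 at 20 mg/kg/day and 357, 280.1, 313 and 437 at 100. The groups overlapped at both. At 100 mg/kg/day the change of E01524cds_s_at was 0.19 ± 0.20 with a 95% interval of -0.23 to 0.60 (adjusted p = 0.708), and that of M10068mRNA_s_at was 0.26 ± 0.27, interval -0.28 to 0.79 (adjusted p = 0.689). At 20 mg/kg/day they were 0.29 ± 0.19 and 0.14 ± 0.25 (adjusted p = 0.546 and 0.886). The leading probe set scattered most here: 177, 272, 194 and 325 in vehicle livers, 230.5, 155, 509.6, 384 and 361 at 20 mg/kg/day and 63.6, 150.1, 188 and 485 at 100. Its change at 100 mg/kg/day was -0.44 ± 0.35 (adjusted p = 0.547). With 1 array left out it spanned -0.93 to 0.03, the last without replicate 1, the lowest array, and was never called. Directly compared, 100 against 20 mg/kg/day gave -0.80 ± 0.33 (adjusted p = 0.244), which passed without replicate 4 at 100, the brightest there (adjusted p = 0.00682).

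The vehicle livers of studies 3 and 2 differed at 2 of the 3 Por probe sets. E01524cds_s_at averaged 124 ± 19.4 in study 3 vehicle livers (SD, n = 5) and 257 ± 67.7 in study 2 vehicle livers (SD, n = 4). The vehicle groups of studies 1 and 4 averaged 133 and 123, were not tested against study 2, and in study 1 reached 179.5, within the range of study 2 (159 to 307). Between the 336 h vehicles the difference was -1.0 ± 0.19 (adjusted p = 1.68e-04). M10068mRNA_s_at averaged 110.2 ± 24.2 in study 3 vehicle livers and 289.7 ± 52.5 in study 2 vehicle livers, a difference of -1.38 ± 0.25 (adjusted p = 8.24e-05). The leading probe set differed by -0.71 ± 0.33 (adjusted p = 0.141). At all 3 probe sets the vehicle arrays of study 3 lay below those of study 2 without overlap. Lack of overlap held for 20.8% of all tested probe sets, and 9.29% were called lower in study 3 vehicle livers, as were 2 of the 7 probe sets described here. In R1 livers E01524cds_s_at averaged 491 ± 112 at 30 mg/kg/day in study 3, 309 ± 51.2 at 20 and 295 ± 85.4 at 100 mg/kg/day in study 2. Study, vehicle group and any handling between the studies cannot be told apart.

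**Figure D3:**
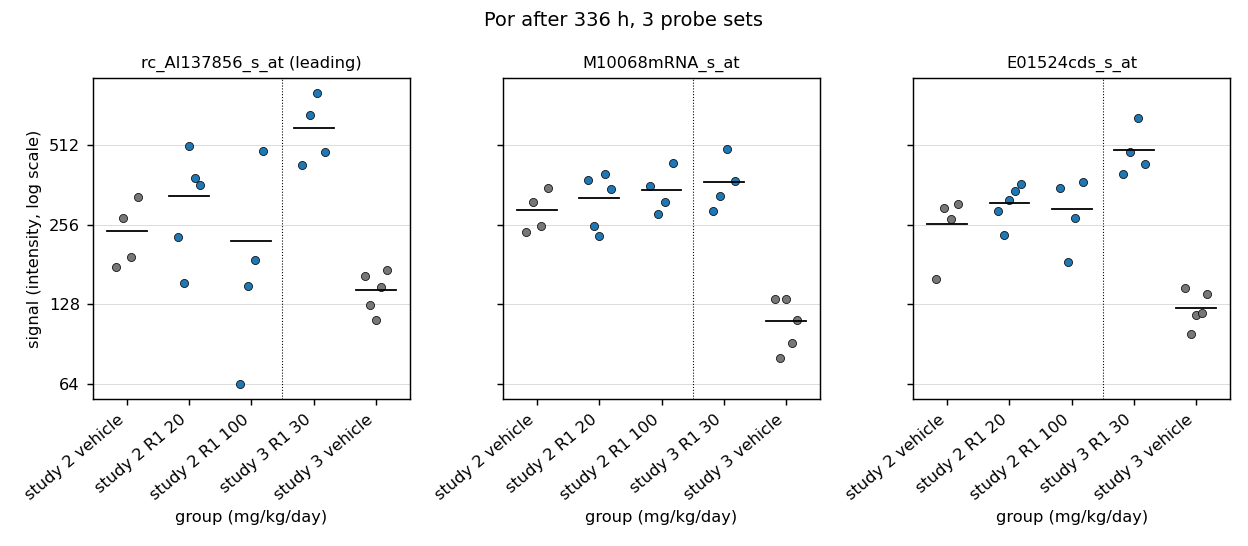
Deposited signal (log scale) of the 3 Por probe sets in each array of the 336 h studies (points) with group means (lines), doses in mg/kg/day. In study 3 the R1 arrays lie above the vehicle arrays in each panel, and the study 2 vehicle arrays lie above the study 3 vehicle arrays (means 257 and 124 for E01524cds_s_at).

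Alas1 rose within 24 h with R1 from 30 mg/kg/day upwards. The leading probe set, J03190_at, had 601, 451 and 351 in study 1 vehicle livers, 594, 593, 451 and 625 at 10 mg/kg/day, 1045, 958 and 1183 at 30 and 1229, 1452 and 1601 at 100. The arrays at 10 mg/kg/day fell among the vehicle arrays or just above them, those at 30 lay above all of these, and those at 100 above all at 30. The log2 fold change was 0.30 ± 0.25 at 10 mg/kg/day (adjusted p = 0.761, 95% interval -0.21 to 0.80), 1.21 ± 0.27 at 30 (adjusted p = 0.00458) and 1.63 ± 0.27 at 100 (adjusted p = 2.77e-05). The second probe set, J03190_g_at, changed by 0.08 ± 0.27, 1.31 ± 0.29 and 1.67 ± 0.29 at the same doses (adjusted p = 0.960, 0.00478 and 7.44e-05). Without vehicle replicate 3, the lowest vehicle array, the calls at 30 mg/kg/day were lost for both probe sets (adjusted p = 0.0675 and 0.105). From 10 to 100 mg/kg/day the increase was 1.33 ± 0.25 and 1.60 ± 0.27 (adjusted p = 5.91e-04 and 1.56e-04), and this was called without any 1 of the arrays too.

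With R2 both Alas1 probe sets rose. J03190_at had 2153, 1697, 2884, 2186 and 2001 in R2 livers, against 965, 622, 873 and 597 in vehicle livers, a change of 1.52 ± 0.22 (adjusted p = 1.18e-06). J03190_g_at had 1129.6, 1203, 1258, 968 and 932 in R2 livers, against 275, 263, 357 and 252 in vehicle livers, a change of 1.93 ± 0.24 (adjusted p = 4.07e-08). The lowest R2 array of either probe set was above the highest vehicle array.

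After 336 h Alas1 was called in study 3 and not in study 2, and the difference between these effects was not tested. At 30 mg/kg/day in study 3, J03190_at had 1025, 1082, 1559 and 801 in R1 livers, against 739.5, 391, 665, 723 and 434 in vehicle livers, with no overlap. The change was 0.92 ± 0.22 (adjusted p = 0.00270), and that of J03190_g_at was 0.93 ± 0.24 (adjusted p = 0.00582), the second lost without R1 replicate 3, the brightest array (adjusted p = 0.0667). In study 2, J03190_at had 599, 749, 892 and 552 in vehicle livers, 719.6, 1057, 1225, 865 and 1048 at 20 mg/kg/day and 1496, 704, 979 and 738 at 100. These groups overlapped, and the changes of 0.49 ± 0.22 at 20 mg/kg/day and 0.45 ± 0.23 at 100 did not pass (adjusted p = 0.251 and 0.272). Their 95% intervals, 0.05 to 0.94 and -0.02 to 0.91, allow a rise close to that seen in study 3. J03190_g_at changed by 0.62 ± 0.24 and 0.62 ± 0.25 (adjusted p = 0.156 and 0.125). The summed level of the erythroid markers on the array (3 of 9: Hbb, Alas2 and Slc4a1, none at 0) was 1252 to 2524 in R1 livers of study 3, against 2771 to 4948 in vehicle livers. In study 2 this sum was 2593 to 5044 at 100 mg/kg/day and 4109 to 5547 at 20, against 5208 to 6958 in vehicle livers. Most of the sum was Hbb, whose mean over the arrays was 4312, against 128 for Alas2 and 38.1 for Slc4a1. Alas2, the erythroid form of the enzyme, fell by 1.08 ± 0.31 on the log2 scale in study 3 (adjusted p = 0.0175). Alas1 and Alas2 thus moved in opposite directions there. At 100 mg/kg/day in study 2 Alas2 changed by -0.79 ± 0.33 and was not called (adjusted p = 0.138).

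Hmox1 rose at the higher doses. The leading probe set, rc_AI179610_at, had 30.2, 38.1 and 56.2 in study 1 vehicle livers, 35.8, 50.4, 61.0 and 55.9 at 10 mg/kg/day, 162, 59.6 and 59.9 at 30 and 248, 140.1 and 159 at 100. At 10 mg/kg/day it overlapped vehicle, at 30 the arrays lay just above it, apart from the brighter replicate 1, and at 100 all 3 arrays lay well above. The log2 fold change was 0.29 ± 0.29 at 10 mg/kg/day, 1.00 ± 0.31 at 30 and 2.06 ± 0.31 at 100 (adjusted p = 0.819, 0.102 and 7.35e-06). J02722cds_at had 7.84, 12.6 and 21.9 in vehicle livers, 25.4, 27.1, 26.1 and 16.0 at 10 mg/kg/day, 51.1, 32.2 and 25.7 at 30 and 123, 56.2 and 61.9 at 100. It changed by 0.70 ± 0.33, 1.24 ± 0.35 and 2.29 ± 0.35 (adjusted p = 0.471, 0.0541 and 7.38e-06). Its value at 30 mg/kg/day passed with a smaller offset (1.33, adjusted p = 0.0441) or a stricter filter (adjusted p = 0.0361). From 10 to 100 mg/kg/day the increase was 1.77 ± 0.29 and 1.59 ± 0.33 (adjusted p = 1.04e-04 and 0.00183), and the second call was lost without replicate 1 at 100 mg/kg/day (adjusted p = 0.0539).

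With R2 both Hmox1 probe sets rose. The leading one had 289, 271, 236, 228 and 262 in R2 livers, against 81.9, 44.6, 64.9 and 48.8 in vehicle livers (2.08 ± 0.26, adjusted p = 4.07e-08). J02722cds_at had 173, 160.3, 116, 129 and 134 in R2 livers, against 32.4, 19.5, 31.2 and 18.3 in vehicle livers (2.39 ± 0.29, adjusted p = 2.41e-08). The R2 arrays lay close together at the leading probe set, all above the vehicle arrays.

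After 336 h Hmox1 was higher in study 2 with R1 at 100 mg/kg/day and not at 20. The leading probe set had 101, 97.2, 91.3 and 82.1 in vehicle livers, 121, 91.3, 108, 102 and 77.1 at 20 mg/kg/day and 284, 141, 287 and 289 at 100. The arrays at 20 mg/kg/day spanned the vehicle range, and each array at 100 was above it, replicate 2 by the least. The change was 0.09 ± 0.26 at 20 mg/kg/day (adjusted p = 0.927) and 1.35 ± 0.27 at 100 (adjusted p = 3.20e-04), and 100 exceeded 20 by 1.26 ± 0.26 (adjusted p = 8.72e-04). J02722cds_at had 48.1, 45.2, 38.5 and 37.3 in vehicle livers, 45.9, 38.9, 50.4, 58.5 and 31.2 at 20 mg/kg/day and 68.3, 59.5, 121 and 157 at 100. Its change at 100 mg/kg/day was 1.11 ± 0.30 (adjusted p = 0.00978), lost without replicate 4, the brightest array (adjusted p = 0.0770). Its difference between the doses was 1.04 ± 0.29 (adjusted p = 0.0241), lost without replicate 3 or 4 at 100 mg/kg/day or replicate 2 or 5 at 20 (adjusted p up to 0.177).

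In study 3, at 30 mg/kg/day, the leading Hmox1 probe set had 123, 117, 283 and 148 in R1 livers, against 85.1, 65.5, 92.1, 111 and 75.2 in vehicle livers. All R1 arrays lay above the vehicle arrays, replicates 1 and 2 narrowly. The change was 0.87 ± 0.26 (adjusted p = 0.0194), a call lost without R1 replicate 3 or without vehicle replicate 2 (adjusted p up to 0.197). J02722cds_at had 45.0, 43.5, 117 and 46.9 in R1 livers, against 44.8, 44.1, 24.2, 46.4 and 35.3 in vehicle livers, and overlapped (0.56 ± 0.29, adjusted p = 0.250).

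Markers of other liver cells moved in some of these comparisons. The Kupffer cell and macrophage list (4 of 10 genes on the array, none of their means at 0) summed to 469 to 670.0 at 100 mg/kg/day after 336 h, against 841 to 1346 in study 2 vehicle livers. It summed to 537 to 559 at 100 mg/kg/day after 24 h, against 489.9 to 921 in study 1 vehicle livers, and to 677 to 909.6 in R2 livers, against 649 to 730.2 in vehicle livers. The sum was lower at 100 mg/kg/day after 336 h, and also at 20 (558 to 811), where no Hmox1 probe set was called. In study 3 it was 472 to 655 in R1 livers, against 643 to 989 in vehicle livers, and overlapped. Clec4f was called lower in each of these, and Lyz2 in none. Clec4f changed by -0.88 ± 0.22 at 20 and -0.82 ± 0.22 in study 3 (limma adjusted p = 0.00815 and 0.00729). With R2 the sum overlapped vehicle, and no tested gene of the list was called. Hmox1 was called higher at 100 mg/kg/day after 336 h and with R2, and at 1 probe set in study 3. The part of these cells in the Hmox1 levels was not tested. The bile duct list (4 of 6 genes) summed to 81.6 to 181 at 100 mg/kg/day after 336 h, against 42.1 to 86.8 in vehicle livers, to 107 to 148 in R1 livers of study 3, against 43.3 to 107 in vehicle livers, and to 71.4 to 106 in R2 livers, against 37.6 to 72.2 in vehicle livers. Of these genes only Epcam was called, by 1.64 ± 0.31, 1.30 ± 0.30 and 1.08 ± 0.30 in the same order (limma adjusted p = 1.75e-04, 0.00185 and 0.00845). The other members went either way without a call, such as Spp1 by -0.64 at 100 mg/kg/day after 336 h and Cftr by -0.59 with R2. The part of the bile duct cells was not tested either. The hepatocyte list summed to 45792 to 51914 in R1 livers of study 3, against 53955 to 55800 in vehicle livers. Its members moved both ways there. Apoc3 and Fgb changed by -0.65 ± 0.10 and -0.87 ± 0.16 (limma adjusted p = 6.71e-06 and 8.03e-05), and Apoa1 rose by 0.59 ± 0.12 (adjusted p = 7.03e-04). Alb changed by -0.11 ± 0.09 and was not called. The stellate cell and fibroblast list summed to 282 to 420 at 100 mg/kg/day after 336 h, against 479 to 713 in vehicle livers. The endothelial list summed to 77.2 to 128 there, against 141 to 175. At 20 mg/kg/day the 2 sums were 303 to 381 and 96.0 to 133. In study 3 both overlapped vehicle, with Kdr, Col1a1 (1 of 4 probe sets) and Col3a1 called lower and the other tested genes not called. The part of these cells was not tested.

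The same dose of R1 was given for both times, in different studies. At 100 mg/kg/day, the effect on Por was smaller at 336 h than at 24 h by -2.72 ± 0.53, -1.61 ± 0.41 and -2.03 ± 0.31 for rc_AI137856_s_at, M10068mRNA_s_at and E01524cds_s_at (effect at 336 h minus effect at 24 h, adjusted p = 7.01e-04, 0.0105 and 1.71e-05). For Alas1 the difference was -1.18 ± 0.35 at J03190_at (adjusted p = 0.0355) and -1.06 ± 0.38 at J03190_g_at (adjusted p = 0.108). The first of these 2 was lost without any 1 of 8 of the 14 arrays involved: replicates 2 and 3 of each of the 2 vehicle groups and of R1 at 24 h, and replicates 2 and 4 of R1 at 336 h (adjusted p up to 0.121). For Hmox1 it was -0.71 ± 0.41 and -1.18 ± 0.46 (adjusted p = 0.418 and 0.146). In all 4 of 7 were called lower at 336 h, as were 3.13% of all probe sets. The higher Por level of study 2 vehicle livers enters this difference: E01524cds_s_at averaged 295 ± 85.4 at 100 mg/kg/day and 257 ± 67.7 in vehicle livers at 336 h, and 622 ± 149 and 133 ± 40.6 at 24 h. At 30 mg/kg/day none of the 7 effects differed between 336 h in study 3 and 24 h in study 1 past the threshold (0.959% of all called). By limma 0 of 7 had an unadjusted p under 0.05, and the differences ranged from -0.68 to 0.42. Time, study and vehicle group change together here and cannot be told apart. Between the 24 h vehicles, study 4 against study 1, 0 of 7 were called (5.64% of all). The difference was 0.71 ± 0.25 for Alas1 J03190_at (adjusted p = 0.0856) and 0.78 ± 0.33 for Hmox1 J02722cds_at (adjusted p = 0.162). By limma 2 of 7 had an unadjusted p under 0.05. The share of all probe sets at that unadjusted threshold was not counted.

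Over the 11 groups, ordered by mean log2 level, few neighbours were separated by more than their pooled SD. For Por the top places were held by R1 at 100 mg/kg/day after 24 h (rc_AI137856_s_at, 659 ± 268, and E01524cds_s_at, 622 ± 149, SD, n = 3) or by R2 (M10068mRNA_s_at, 678 ± 363, n = 5). Of 10 neighbouring pairs, 2, 3 and 4 differed by more than the pooled SD at rc_AI137856_s_at, M10068mRNA_s_at and E01524cds_s_at. The 24 h vehicles and the study 3 vehicle formed the low end at M10068mRNA_s_at and E01524cds_s_at, with the study 2 groups above them. For Alas1, R2 had the highest mean level (J03190_at, 2184 ± 436, n = 5), in a study whose vehicle averaged 764, and R1 at 100 mg/kg/day after 24 h came next (1427 ± 187, n = 3), where vehicle averaged 468. Next were 30 mg/kg/day after 336 h (1117 ± 319, n = 4), 30 after 24 h (1062 ± 114, n = 3), 20 after 336 h (983 ± 195, n = 5) and 100 after 336 h (979 ± 366, n = 4), and no neighbours among these 4 were apart by their pooled SD. Vehicle of study 1 was last (468 ± 126, n = 3), behind R1 at 10 mg/kg/day (566 ± 78.1, n = 4). For Hmox1, R2 (257 ± 25.0, n = 5) and R1 at 100 mg/kg/day after 336 h (250.2 ± 72.8, n = 4) had the highest mean levels, in different studies. R1 at 100 after 24 h followed (182 ± 57.9, n = 3), then 30 after 336 h (168 ± 77.9, n = 4), and the gap below that, to 20 mg/kg/day after 336 h (99.8 ± 16.6, n = 5), was the 1 pair of 10 beyond the pooled SD. Vehicle arrays of Hmox1 lay between 65.5 and 111 in study 3 and between 82.1 and 101 in study 2, the 336 h studies. They lay between 44.6 and 81.9 in study 4 and between 30.2 and 56.2 in study 1, a difference between the times that was not tested.

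The probe sets of a gene varied together to different degrees. Across 44 arrays the Pearson correlation of log2 levels was 0.957 between the 2 Alas1 probe sets and 0.942 between the 2 of Hmox1. After removal of the group means it was 0.815 and 0.731. For Por, M10068mRNA_s_at and E01524cds_s_at correlated at 0.909, and at 0.531 within groups, while rc_AI137856_s_at correlated with M10068mRNA_s_at at 0.695 and at 0.262 within groups. The last pair thus shared the least of the variation between arrays of a group. Between the genes, the leading probe sets of Por and Alas1 correlated at 0.518 (-0.174 within groups). Those of Por and Hmox1 correlated at 0.365 (0.199 within groups), and those of Alas1 and Hmox1 at 0.727 (0.208 within groups). Por E01524cds_s_at correlated at 0.727 with Alas1 J03190_at (0.329 within groups) and at 0.636 with Hmox1 rc_AI179610_at (0.333 within groups). Within groups, Alas1 J03190_at correlated at -0.136 with Por M10068mRNA_s_at and at -0.066 with Hmox1 J02722cds_at. These are descriptions over arrays that share groups and studies.

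Among the other electron donors of P450, of which 7 of 8 listed genes were tested with Por itself, Por was called in 5 of the 7 doses against vehicle. Cyb5b, a cytochrome b5 of the mitochondrial outer membrane, rose by 0.82 ± 0.25 at 100 mg/kg/day after 24 h (adjusted p = 0.0413) and by 1.36 ± 0.22 at 100 after 336 h (adjusted p = 9.02e-06). Cyb5r3, which passes electrons from NADH to cytochrome b5, rose by 0.92 ± 0.19 at 100 mg/kg/day after 336 h (adjusted p = 3.88e-04), and its effect exceeded that at 24 h by 1.04 ± 0.29 (adjusted p = 0.0201, 1 of its 5 probe sets). Pgrmc1, a heme-binding membrane protein, rose by 0.60 ± 0.16 at 20 mg/kg/day after 336 h (adjusted p = 0.0188). Its means were 917 at 20 and 849 at 100 mg/kg/day there, against 609 in vehicle livers. The direct difference, 100 against 20, was -0.12 ± 0.16 (adjusted p = 0.866). At 100 mg/kg/day after 24 h it averaged 887, against 583 in vehicle livers. Cyb5a, Cyb5r1 and Fdx1 were not called in any dose against vehicle. In the vehicle livers Cyb5r3 was higher in study 3 than in study 2 by 1.63 ± 0.18 (adjusted p = 2.42e-09), where Por was lower.

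Of the heme synthesis enzymes, 5 of 9 were on the array and tested, and Alas1 was the 1 that rose. With R2, Ppox and Urod, which act late and in the middle of the pathway, fell by 0.54 ± 0.16 and 0.48 ± 0.15 on the log2 scale (adjusted p = 0.0194 and 0.0257). Alad, the second enzyme, was not called in any comparison. The median of the 5 was -0.48 with R2 and -0.16 at 100 mg/kg/day after 24 h, where the medians over all tested probe sets were -0.05 and -0.04. Ppox and Urod also differed between the vehicles of studies 3 and 2, by 0.91 ± 0.16 and -0.80 ± 0.15 (adjusted p = 6.66e-05 and 1.44e-04). Of the heme breakdown and iron storage list 3 of 7 genes were tested, and Hmox1 was called while Hmox2, the constitutive heme oxygenase, and Blvra, a biliverdin reductase, were not in any dose against vehicle. Of 8 genes of heme and iron handling, Tfrc, the transferrin receptor that brings iron into cells, rose by 1.35 ± 0.40 at 100 mg/kg/day after 336 h (adjusted p = 0.0212) and by 1.33 ± 0.38 at 30 in study 3 (adjusted p = 0.0163). Its mean signals there were dim, at 77.2 in R1 livers and 28.5 in vehicle livers of study 2, and 43.7 in R1 livers and 17.4 in vehicle livers of study 3.

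**Figure D4:**
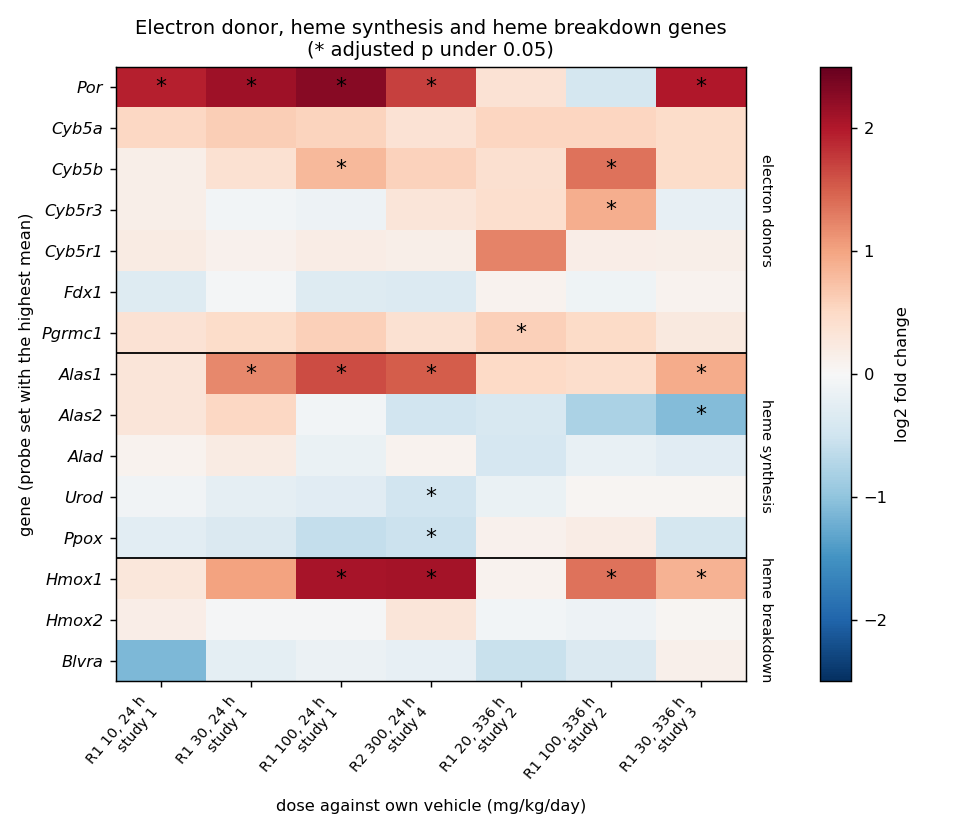
Log2 fold change (colour) of the tested electron donor, heme synthesis and heme breakdown genes (vertical axis, the probe set with the highest mean) in each dose against the vehicle of its study (horizontal axis, mg/kg/day); stars mark an adjusted p under 0.05. Por, Alas1 and Hmox1 carry most of the stars, and Ppox, Urod and Alas2 show the falls that passed.

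Of the liver P450 apoproteins that take up heme, 27 of 31 listed were tested, and they moved both ways. After 24 h of R1, 3, 4 and 3 were called higher at 10, 30 and 100 mg/kg/day and 0, 0 and 1 lower. After 336 h it was 5 higher and 3 lower at 20 mg/kg/day, 6 and 8 at 100, and 4 and 5 at 30 in study 3. With R2 6 were higher and 7 lower. Over all tested probe sets, 1.04%, 1.48% and 3.96% were higher and 0.204%, 0.252% and 2.44% lower after 24 h. The shares were 2.55% and 1.89% at 20 mg/kg/day, 5.11% and 5.2% at 100, 5.27% and 6.01% in study 3, and 7.44% and 7.88% with R2. Cyp3a23-3a1, a drug oxidase whose probe sets can share signal with other Cyp3a genes, rose by 1.78 ± 0.18 at 10 mg/kg/day after 24 h (adjusted p = 7.65e-09), and by 3.05 ± 0.16 at 20 after 336 h in study 2 (adjusted p = 1.64e-18), where no Por probe set was called. Cyp51, the sterol demethylase that depends on the reductase, rose by 3.22 ± 0.21 at 100 mg/kg/day after 336 h (adjusted p = 2.88e-16) and by 3.13 ± 0.20 with R2 (adjusted p = 5.43e-16). Cyp2c11, a male-specific steroid hydroxylase, and Cyp17a1 fell by 3.40 ± 0.36 and 3.96 ± 0.43 on the log2 scale at 100 mg/kg/day after 336 h (adjusted p = 7.36e-10 and 1.15e-09). Study 3 vehicle livers exceeded those of study 2 by 1.33 ± 0.16 for Cyp3a23-3a1 and 2.35 ± 0.20 for Cyp51 (adjusted p = 3.77e-08 and 4.46e-12). Cyp17a1 differed there by -3.58 ± 0.41 (adjusted p = 6.94e-09). Cyp2c11 was not called at its leading probe set (0.45 ± 0.34, adjusted p = 0.402), though 2 of its 3 probe sets were. Cyp7a1, the rate-limiting enzyme of bile acid synthesis, fell by 4.65 ± 0.63 with R2 (adjusted p = 3.66e-07). The medians of the 27 stayed between -0.15 and 0.29 in the 7 doses against vehicle.

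Some genes known as NRF2 targets beside Hmox1 rose in every dose group. Of 11 tested genes (14 listed), 3, 4 and 9 were higher at 10, 30 and 100 mg/kg/day after 24 h, 9 with R2, 6 and 8 at 20 and 100 after 336 h and 7 at 30 in study 3, and 0 were lower. Over all tested probe sets the shares called higher in the same order were 1.04%, 1.48%, 3.96%, 7.44%, 2.55%, 5.11% and 5.27%. At 20 mg/kg/day after 336 h, where Hmox1 was 0.09 ± 0.26, Gpx2, a glutathione peroxidase, was higher by 3.05 ± 0.39 (adjusted p = 2.68e-07) and Akr7a3, an aldehyde reductase, by 2.43 ± 0.31 (adjusted p = 1.92e-07). Between 20 and 100 mg/kg/day after 336 h, 0 of the 11 were called by limma, where 2.09% of all probe sets were called higher. By limma 2 of them had an unadjusted p under 0.05, a threshold at which the share of all probe sets was not counted. Hmox1 was not tested against these genes. Of 8 tested regulators of the 3 genes, Hnf4a, a hepatocyte transcription factor, rose by 0.80 ± 0.20 at 100 mg/kg/day after 24 h (adjusted p = 0.00607, 1 of 3 probe sets). Nfe2l2, which encodes NRF2, fell by 0.82 ± 0.24 on the log2 scale at 30 after 336 h (adjusted p = 0.0158, 1 of 2 probe sets). The others of the 8 were not called in any dose against vehicle. Nr1i2 (PXR), Nr1i3 (CAR), Bach1 and Keap1 were listed too but were not among the tested genes. Of 6 other heme proteins, Tdo2, the liver enzyme that opens tryptophan, rose by 0.81 ± 0.21 at 100 mg/kg/day after 336 h (adjusted p = 0.00618), and Gucy1b1 and Nos2 fell by 0.88 ± 0.31 and 1.22 ± 0.39 with R2 (adjusted p = 0.0465 and 0.0275, Nos2 by 1 of 3 probe sets).

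The genes most like each member were taken by Pearson correlation of log2 levels across the 44 arrays, 1 probe set per gene. Por was most like Hsp90ab1, a cytosolic chaperone (0.840), followed by Gclc (0.781) and Gsr (0.730), both of glutathione metabolism, Slc3a2 (0.723), an amino acid transporter subunit, and Psat1 (0.711), of serine synthesis. Alas1 was most like the proteasome subunit genes Psmc5 (0.819), Psmc4 (0.816) and Psma5 (0.779), with Apex1 (0.758), a DNA repair enzyme, and Psmb3 (0.746), another proteasome subunit. Hmox1 was most like Apex1 (0.881), then Psma5 (0.849), Psma4 (0.831), Psma2 (0.820) and Ighvl1 (0.798). Over the 11 group means the first places were the same, at 0.939 for Hsp90ab1 with Por, 0.931 for Psmc5 with Alas1 and 0.951 for Apex1 with Hmox1. The points share groups, studies and the common scaling of the arrays.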

How the data were processed

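Liver RNA of 44 rat samples was measured on 1-colour Affymetrix arrays. Per the submitters' processing notes, the authors used MAS5, and the deposited values are intensity signals on a linear scale. Its version and scaling target are not given in the sources used here. All 44 arrays held the same sorted values (largest difference 0, median 14.5), so they had been brought to 1 distribution before deposit. Levels are therefore relative to the other genes of an array. No detection call entered the work.

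Of 8799 probe sets, 59 controls were left out. By the array's annotation, 7017 had 1 gene symbol, 297 several and 1426 none, and a gene's leading probe set is its highest by mean. Probe sets were tested where the highest group mean reached 9.17, percentile 40 of all values. After addition of 2.895 (percentile 20) and log2, limma 3.58.1 in R 4.3.3 fitted 1 mean per group over all arrays, with a mean-variance trend and 33 residual degrees of freedom. The 2-sided p-values of each of 13 comparisons were adjusted on their own by Benjamini-Hochberg. Tables and plots were made with Python 3.11.15, numpy 2.4.6, pandas 2.3.3 and matplotlib 3.10.9, and the procedure was tested on simulated data.

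The genes, lists and tests were chosen with earlier results of these data known. Named genes are the 3 genes and up to 4 called genes with the largest change per list and comparison, of which a part is given. Members with no call are named where a list is accounted for. Alternatives were other offsets, filters, scaling, variance model, array weights, each study alone, a replicate block and each array left out. R2 without replicates 1 and 2 was added after seeing the data. Some genes of these lists are not reported here.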

Additional observations from a re-analysis of the deposited data

Results flagged for a closer look

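Of 56 combinations of a probe set with a group of 4 or 5 arrays, 3 held 1 array far from the others by Dixon's criterion, which chance meets in about 1 in 20 groups, and all 3 were of Hmox1. At the leading Hmox1 probe set, R1 at 100 mg/kg/day after 336 h, replicate 2 had 141, and the others 284 to 289. At J02722cds_at, R1 at 10 mg/kg/day after 24 h, replicate 4 had 16.0, and the others 25.4 to 27.1. At J02722cds_at, R1 at 30 mg/kg/day after 336 h, replicate 3 had 117, and the others 43.5 to 46.9. The same array, replicate 3, had the highest signal of its group at all 7 probe sets of the 3 genes.

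The effect of 100 mg/kg/day of R1 differed between 336 h in study 2 and 24 h in study 1 by the test of the difference itself (336 h minus 24 h, log2) at 4 of 7 probe sets. The values were -2.72 for Por rc_AI137856_s_at, -1.61 for Por M10068mRNA_s_at, -2.03 for Por E01524cds_s_at and -1.18 for Alas1 J03190_at.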

How the results depend on the processing

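Over the 91 fold changes of the 7 probe sets in 13 comparisons, 784 values under other settings held 773 with the same direction and side of the threshold, 3 that lost a call, 6 that gained one and 2 that changed sign. Leaving out 1 array gave 805 values, of which 758 kept direction and call, 21 lost a call, 6 gained one and 20 changed sign. With arrays weighted by quality the counts of called probe sets were 633 for 100 mg/kg/day of R1 after 24 h (unweighted count 407), 452 for 20 after 336 h (282), 380 for 100 against 10 (253) and 714 for the 24 h vehicles (359), and Alas1 J03190_g_at in 100 against 20 mg/kg/day was 0.0057 (unweighted -0.0020). Without the mean-variance trend the time difference of Alas1 J03190_at at 100 mg/kg/day, -1.18, had adjusted p = 0.0576. Same-numbered arrays of a study did not deviate together (38 pairs, correlation -0.09 to 0.15, and 13 of 40 arrays correlated best with their own number). With the replicate block, counts were 94, 109 and 412 at 10, 30 and 100 mg/kg/day after 24 h, Hmox1 rc_AI179610_at at 30 after 336 h was 0.83 (adjusted p = 0.0524), Hmox1 J02722cds_at in 100 against 20 was 0.93 (adjusted p = 0.156), and Alas1 J03190_g_at at 10 was -0.078. The block ended no other call of the 7 probe sets. The cause of these changes was not tested.

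With 1 array left out, counts of called probe sets ranged over 37 to 95 at 10 mg/kg/day after 24 h, 73 to 110 at 30, 263 to 376 at 100, 453 to 672 at 30 after 336 h, 124 to 276 for 100 against 10, 30 to 61 for the time difference at 30 and 193 to 291 for the 24 h vehicles. Leading probe sets that changed call or sign ranged over these log2 values. For Por they were 1.61 to 2.13 at 10 mg/kg/day, -0.93 to 0.027 at 100 after 336 h, -1.29 to -0.33 for 100 against 20 and -0.32 to 0.19 for the time difference at 30. For Alas1 they were 1.02 to 1.40 at 30 after 24 h, -0.28 to 0.086 for 100 against 20 and -1.41 to -1.0 for the time difference at 100. For Hmox1 they were 0.59 to 1.01 at 30 after 336 h and -0.41 to 0.33 for the time difference at 30. Changes of sign elsewhere were at values never called. Por E01524cds_s_at spanned -0.027 to 0.39 at 100 after 336 h, -0.23 to 0.10 for 100 against 20 and -0.21 to 0.16 for the 24 h vehicles. Alas1 J03190_g_at spanned -0.23 to 0.36 at 10 and -0.25 to 0.14 for 100 against 20, and Hmox1 J02722cds_at -0.033 to 0.18 at 20 and -0.20 to 0.013 for the 336 h vehicles. The dim signal of Hmox1 J02722cds_at, 7.84 to 21.9 in study 1 vehicle livers, limits its precision.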
